A study of Mus musculus with 2 samples.

Results

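The 2 microRNAs miR-193b and miR-365, which are encoded side by side in the mouse genome, were measured at E13.5 in the 3rd mammary gland of the mouse embryo and in its inter mammary gland region. They were taken as the rows of both arrays named mmu-miR-193b or mmu-miR-365 that were not control spots, which gave 2 of the 696 miRNAs on the array. Both miRNAs were detected in both regions, that is, they had a probe with over 50% of its spots well above background. miR-365 gave a 1.35-fold higher signal in the 3rd mammary gland, and miR-193b a 1.09-fold higher signal.

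The embryos were of the ICR strain and untreated, with no genetic modification named in the labels, and the labels set the regions apart by the site of dissection. The 3rd mammary gland, here the gland, is at this stage an epithelial bud with its mesenchyme. The inter mammary gland region, here the flank, is the body wall between that gland and the 4th. Cy3-labelled total RNA, 100 ng from each region, was hybridized to 1 Agilent miRNA microarray per region, and the arrays shared a slide and a scan, which therefore do not separate the regions. The number of embryos behind each RNA is not given in the sources used here. With 1 array per region there is no replicate check of any difference and no test was run. Every error given is technical, from the spots of 1 array per region or, where stated, as estimated by the scanner software.

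miRNAs guide Argonaute proteins to messenger RNAs chiefly through the seed, bases 2 to 8 of the mature strand, and lower the output of the targeted messages. miR-193b and miR-365 are made from neighbouring hairpins that can be transcribed together. The locus has been studied in brown fat, where it rises as preadipocytes differentiate and was linked to repression of muscle genes, and in the adult mammary gland, where it is induced through STAT5 and miR-193b restrains stem and progenitor cell activity. A second copy of the pair, miR-193a with another miR-365 hairpin, lies on a different chromosome.

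The hairpins are shown because the miRNAs of both loci end in alike or identical strands. The mature 3p strand is in capitals, in RefSeq sequence on build GRCm38.p6, and all of them lie on the plus strand. The files themselves hold no coordinates.
Mir193b, chr16:13449523-13449601: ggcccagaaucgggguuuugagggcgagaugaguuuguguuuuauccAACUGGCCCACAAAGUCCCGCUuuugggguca
Mir365-1, chr16:13453840-13453926: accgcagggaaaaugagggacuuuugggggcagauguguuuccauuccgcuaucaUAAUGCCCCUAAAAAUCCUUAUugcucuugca
Mir193a, chr11:79711969-79712034: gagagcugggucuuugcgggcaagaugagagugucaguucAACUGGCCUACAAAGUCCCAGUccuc
Mir365-2, chr11:79726400-79726511: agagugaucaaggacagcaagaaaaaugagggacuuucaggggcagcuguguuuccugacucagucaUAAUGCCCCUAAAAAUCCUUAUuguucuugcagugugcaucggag

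On chromosome 16 the hairpins of miR-193b and miR-365-1 were 4238 bases apart, and on chromosome 11 those of miR-193a and miR-365-2 were 14365 bases apart. The mature strands are shown with the seed in capitals, because the seeds set apart the members of the cluster and join miR-193b to miR-193a.
miR-193b-3p: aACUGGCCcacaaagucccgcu
miR-193a-3p: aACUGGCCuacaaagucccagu
miR-365-3p: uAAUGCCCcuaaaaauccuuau
miR-193b-3p and miR-193a-3p had the same seed and were identical at 19 of 22 bases. The differences, counted from the 5′ end with the base of miR-193b first, were C9U, G20A and C21G. Among the 1679 mature names from RefSeq, 2 carried this seed, and 1 name, miR-365-3p, carried the seed AAUGCCC. miR-193b and miR-365 thus shared a locus but no seed. Both miR-365 hairpins give the same mature 3p strand, so the signal of miR-365 cannot be assigned to one chromosome. The array names carry no arm. By the older naming a name without a star stands for the main strand, here the 3p strand, and mmu-miR-193 is the older name of miR-193a. The files hold no probe sequence, so how far the probes of miR-193b and miR-193 read each other's strand was not tested.

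miR-193b was read by 2 probes, each printed as 10 spots. On probe A_54_P3060 the background-subtracted intensity ran from 204 through a median of 232 to 261 in the gland, and from 179 through 195 to 205 in the flank. On probe A_54_P3061 it ran from 293 through 334 to 366, and from 246 through 293 to 324. The regions overlapped on both probes, with the gland the brighter on average. The means were 234 ± 15.6 (SD over 10 spots) against 193 ± 9.43 for the first probe and 338 ± 22.1 against 286 ± 25.1 for the second.

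By the scaling used here, part of this difference lay between the arrays as a whole. Whether and how far it did depended on the scaling. To scale the arrays, the intensities were expressed relative to the 75th percentile over probes detected in both regions, which was 786 in the gland and 719 in the flank. After scaling, miR-193b was 1.09-fold higher in the gland, a log2 ratio of 0.12 ± 0.033 (SE over spots). Its probes gave ratios of 1.11 and 1.08, and in scaled signal at 18 of the 20 positions with a usable spot on each array the gland was the brighter.

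miR-365 was read by 2 probes of 10 spots each, and stood further apart. On probe A_54_P4390 the intensity ran from 556 through a median of 599 to 633 in the gland. In the flank it ran from 360 through 390 to 409 over 9 spots, with 1 outlier left out. On probe A_54_P4391 it ran from 629 through 668 to 721 in the gland and from 435 through 465 to 525 in the flank. No spot of the gland was as dim as the brightest spot of the flank, on either probe. The means were 598 ± 25.7 against 388 ± 14.3 for the first probe and 670 ± 31.7 against 471 ± 30.6 for the second.

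After scaling, the signal of miR-365 was 1.35-fold higher in the gland, a log2 ratio of 0.43 ± 0.023 (SE over spots). The probes gave ratios of 1.41 and 1.30. The gland was the brighter at all 19 positions with a usable spot on each array, with log2 ratios from 0.30 to 0.57. The array was also split into 4 parts by row and column. The median log2 ratio of the miR-365 spots in a part lay between 0.33 and 0.49, so each part showed the difference. For miR-193b the same medians lay between 0.020 and 0.19.

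**Figure D1:**
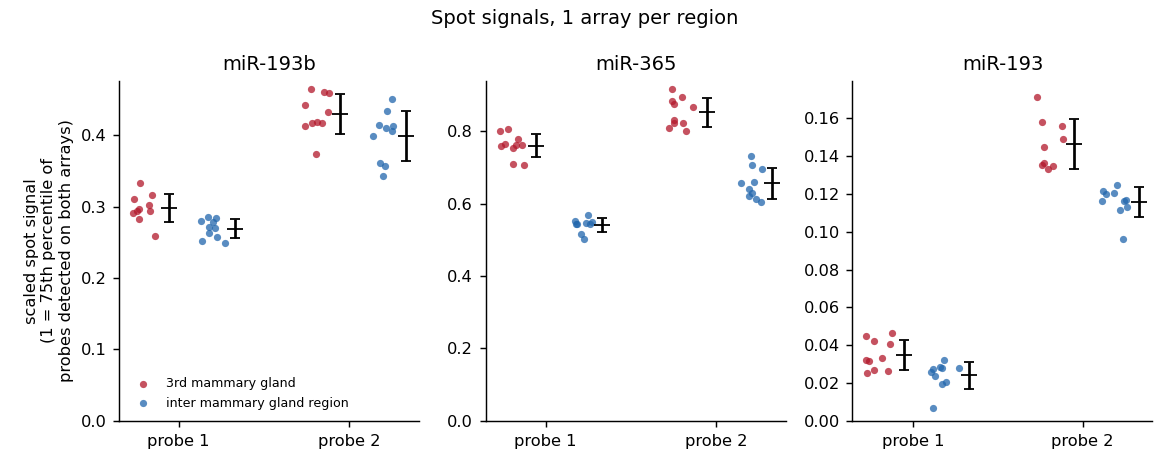
Scaled signal of each spot (linear axis, 1 stands for the 75th percentile of the probes detected in both regions) for the probes of miR-193b, miR-365 and miR-193, with the gland in red and the flank in blue. Bars give the mean ± SD over the spots of 1 array. The regions are apart on both probes of miR-365 and overlap on both probes of miR-193b.

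In scaled signal, 2 of the 4 probes of the cluster, those of miR-365, had every spot of the gland above every spot of the flank. The same held for 19.3% of the 555 probes detected in both regions. This separation therefore describes the precision of spots on single arrays and is common.

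Of the 284 miRNAs detected in both regions, 57.7% had a ratio above 1, as did both members. Ratios of at least 1.5-fold upward were found for 2.11% and downward for 9.15%, and 0 of the 2 members passed in either direction. The ratio of miR-365 was exceeded by 18 of the 284 miRNAs (6.34%) and that of miR-193b by 112 (39.4%). Over 12 alternative ways of processing, these numbers ran from 15 to 44 and from 96 to 131. The 131 was out of 323 miRNAs, counted where the scanner software decided detection, and the other 3 ends were out of 284. The middle of all log2 ratios was narrow, from -0.14 at the 25th percentile through a median of 0.048 to 0.22 at the 75th. miR-193b lay inside this range, 0.075 above the median. miR-365 lay 0.38 above the median and below the 95th percentile of 0.47.

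For scale, the log2 ratios of different probes of the same miRNA differed by a median of 0.083 over the 244 miRNAs with several probes detected in both regions, and by 0.34 at the 95th percentile. The probes of miR-193b differed by 0.039 and those of miR-365 by 0.11. The log2 ratio of each member was thus larger than the difference between its own probes. Relative to the median of all miRNAs, miR-365 lay 0.38 higher, above the 95th percentile of the probe differences. miR-193b lay 0.075 higher, below the median probe difference of 0.083. The spread between separate dissections was not measured.

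**Figure D2:**
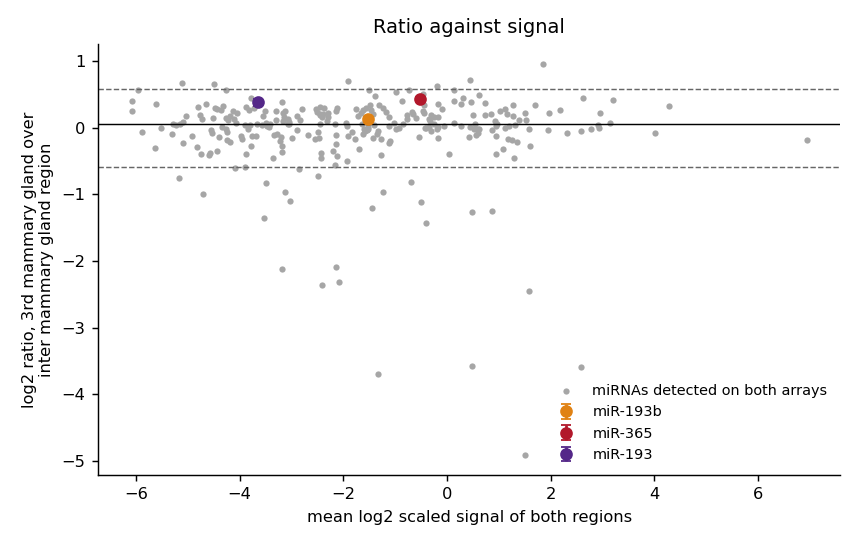
Log2 ratio of the 3rd mammary gland to the flank against the mean log2 scaled signal, for the 284 miRNAs detected in both regions (grey), with miR-193b, miR-365 and miR-193 in colour. Their bars give the SE over spots and are mostly smaller than the points. The solid line is the median of 0.048 and the dashed lines mark 1.5-fold, and all 3 coloured miRNAs lie between the dashed lines.

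Ratios moved little with brightness. In 4 bins of 71 miRNAs each, ordered by mean log2 scaled signal, the median log2 ratio was 0.042, 0.021, 0.094 and 0.027 from the dimmest bin to the brightest. Both members fell in the next to brightest bin. Of its 71 miRNAs, 6 had a ratio above that of miR-365 and 34 one above that of miR-193b.

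Although they come from neighbouring hairpins, the members were not alike in their ratios. The log2 ratio of miR-365 was higher than that of miR-193b by 0.31 ± 0.041 (SE over spots), and by 0.21 to 0.35 over the 12 alternatives. That SE leaves out differences between probes, which reached 0.34 at the 95th percentile for probes of the same miRNA. The signal of miR-365 also need not come from this locus alone, since its hairpin on chromosome 11 gives the same strand. The pairs of neighbouring hairpins on the array, this pair among them, give a description of how close partners usually were. Star strands were left out, and a hairpin was matched by name for 189 of 250 miRNAs detected in both regions, so some close partners are missing. Among the matched miRNAs, 239 pairs had hairpins on the same strand within 10000 bases of each other. Their log2 ratios differed by a median of 0.14. The difference was smaller than that of miR-193b and miR-365 in 186 of the 239 pairs. Some miRNAs in these pairs, like miR-365, come from hairpins at several loci. These pairs share miRNAs and 54.8% of them come from 1 large cluster. Without it the median was 0.13, and 94 of 108 pairs differed by less.

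The miRNA that shares its seed with miR-193b was mmu-miR-193, the older name of miR-193a, made next to the other miR-365 hairpin. It was dim and its probes were unequal. On probe A_54_P2375 the intensity ran from 105 through a median of 114 to 135 over 9 spots in the gland and from 69.1 through 83.8 to 89.7 over 10 spots in the flank, with no overlap. On probe A_54_P2374 it ran from 20.1 through 25.6 to 36.4 and from 4.98 through 19.3 to 23.3. Only 4 of 10 spots of this probe in the gland, and 0 of 10 in the flank, were well above background, so the detection of miR-193 rested on the other probe.

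After scaling, miR-193 was 1.30-fold higher in the gland, a log2 ratio of 0.38 ± 0.053 (SE over spots), which 26 of the 284 miRNAs exceeded. That number ran from 6 with the scaled total signals to 63 after normexp, an alternative background correction, over the 12 alternatives. The log2 ratio of miR-193 was 0.054 below that of miR-365 with an SE of 0.058, and 0.25 above that of miR-193b with an SE of 0.063. Under the reported processing and every alternative but normexp it lay nearer to miR-365. Normexp adds an offset of 50, which by construction draws the ratio of a miRNA as dim as miR-193 toward 1. After normexp miR-193 was nearer to miR-193b, at 0.16 against 0.093 for miR-193b and 0.36 for miR-365. It lay above miR-365 with quantile normalization, at 0.59 against 0.43, and with the scaled total signals, at 0.61 against 0.39. The total signal of the deposited table gave a larger quotient without scaling, 94.6 over 53.8 or 1.76, because it adds both probes in the gland and only A_54_P2375 in the flank. With both probes added in both regions the quotient was 1.45. The star strand, mmu-miR-193*, was read by 4 probes and was detected in neither region, with 0 of its spots well above background. Its mean intensity was 3.80 in the gland and 3.06 in the flank, where the negative control spots averaged 3.81 ± 5.28 (SD over 432 spots) and 2.23 ± 5.07 (SD over 428 spots). Star strands of miR-193b and miR-365 were not analysed here.

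The total signals of the members, as deposited, were 379 (error 27.8, as estimated by the scanner software) against 311 (error 23.0) for miR-193b. For miR-365 they were 840 (error 59.8) against 557 (error 39.9). Their unscaled quotients were 1.22 and 1.51, and came to 1.06 and 1.31 after scaling by the 75th percentile of the totals. Both miRNAs were on the side of the gland under the reported processing and all 12 alternatives. These were not 12 separate checks. A changed scaling factor shifts every log2 ratio by the same amount, and the deposited totals equal those of the scanner software. The median log2 ratio of all miRNAs moved between -0.013 and 0.21 over the alternatives, and relative to it miR-365 lay 0.26 to 0.39 higher and miR-193b 0.038 to 0.093 higher. With the 75th percentile of all probes, miR-365 came to 1.51-fold and so past 1.5-fold, as did 19 of the 284 miRNAs upward and 22 downward, in place of 6 and 26.

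**Figure D3:**
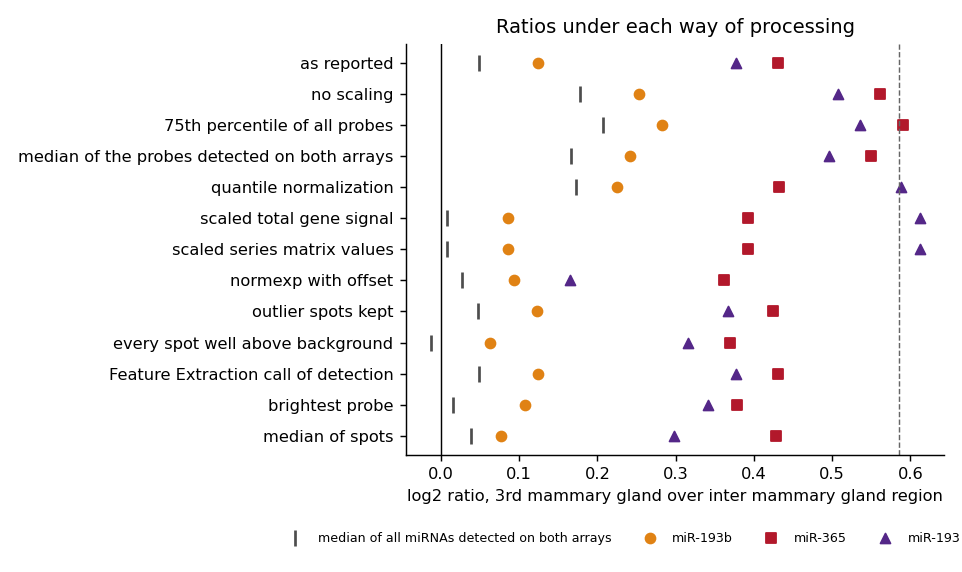
Log2 ratio of the 3rd mammary gland to the flank for miR-193b, miR-365 and miR-193 and the median of all miRNAs detected in both regions, under the reported processing (top) and 12 alternatives. The dashed line marks 1.5-fold. Both members lie to the right of the median in every line, miR-193b from 0.062 to 0.28 and miR-365 from 0.36 to 0.59.

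The ratios nearest to that of miR-365 over the 2 arrays were those of miR-30c (log2 ratio 0.44), miR-615-3p (0.44) and miR-1944 (0.42). For miR-193b they were miR-376b* (0.12), miR-450b-5p (0.13) and miR-127 (0.12). Likeness over 1 ratio says only that these miRNAs stood at the same place in the ordering.

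Other miRNAs with a described part in brown or beige fat had ratios on both sides of 1. Of 17 listed, 16 were detected in both regions, with a median log2 ratio of 0.019, against 0.048 for all miRNAs. 8 of the 16 had a ratio above 1, where 57.7% of all miRNAs did. 0 passed 1.5-fold upward and 2 downward, where 2.11% and 9.15% of all miRNAs did, and 2 of 16 is near that share. Those 2 were miR-133a, with intensities of 190 and 402, and miR-133b, with 713 and 1562, in the gland and the flank. miR-133 targets Prdm16, a regulator of brown fat identity, and is also a muscle miRNA. The log2 ratio was 0.44 for miR-30c, which promotes thermogenic gene expression, 0.35 for miR-27a, an inhibitor of adipocyte differentiation, and -0.40 for miR-378, which is encoded within Ppargc1b. For miR-27b, listed beside miR-27a, it was -0.017. miR-155, an inhibitor of brown adipogenesis, was detected in neither region.

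Of 12 miRNAs listed for mammary epithelium and its progenitors, 10 were detected in both regions, with a median log2 ratio of 0.21, against 0.048 for all miRNAs, and 8 of 10 above 1, against 57.7%. Of these 10, 0 passed 1.5-fold in either direction, where 2.11% of all miRNAs did upward and 9.15% downward. The miR-200 family, which guards the epithelial state by repressing Zeb1 and Zeb2, had log2 ratios from 0.21 (miR-141) to 0.51 (miR-200a). The ratio of miR-365 lay inside this range and that of miR-193b below it. The members of this family come from clustered hairpins and all count among the 8 above 1, so those 8 are not separate observations. miR-205, which is high in basal epithelium, was at -0.021, and miR-203, which is high in differentiating epidermis, at -0.31. miR-31 was detected in the gland alone, with intensities of 125 in the gland and 18.5 in the flank, and so is outside these counts. miR-146b was detected in neither region. miR-203 and miR-93 stand on the fat list too. The summed scaled signal of the 10 was 17.9 in the gland and 16.7 in the flank.

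The muscle miRNAs detected in both regions were dimmer in the gland. Of 7 listed, 4 were detected in both regions, all 4 at least 1.5-fold lower in the gland, against 9.15% of all miRNAs, with a median log2 ratio of -1.24. Their summed scaled signal was 2.09 in the gland and 5.02 in the flank. Among the 4, miR-133b and miR-206 come from neighbouring hairpins, so the 4 are not separate observations. miR-499 was detected in the flank alone, and miR-208a and miR-208b in neither. Of 7 miRNAs of blood cells 5 were detected in both regions, with a median of -0.060 and a range from -0.39 (miR-486) to 0.44 (miR-451). A ratio above 1 was found for 2 of the 5, against 57.7% of all miRNAs. Their summed scaled signal was 7.90 against 6.03, of which miR-451 alone made up 7.23 and 5.32. In dissected tissue, fewer cells of a type and less RNA per cell cannot be told apart. The part of the makeup of the tissue in the ratios of miR-193b and miR-365 was not tested.

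**Figure D4:**
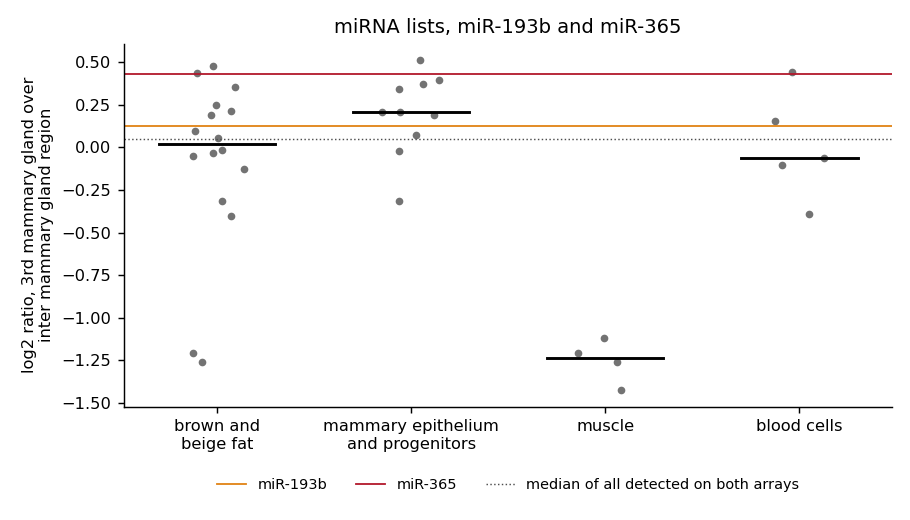
Log2 ratio of the 3rd mammary gland to the flank for the members of each list that were detected in both regions (points), with the list median (black bar), and the ratios of miR-193b and miR-365 as lines. The dotted line is the median of all miRNAs. The 4 muscle miRNAs lie below -1, and both members lie above the median of all miRNAs.

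The share of the 13920 miRNA spots that were well above background was 38.1% on each array, and 296 miRNAs were detected in the gland and 300 in the flank. 0 spots were saturated. All 79 spots of the members that were used were well above background and brighter than every negative control spot, the brightest of which were 17.3 and 19.2. The single array per region limits what the ratios of miR-193b and miR-365 can show.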

How the data were processed

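The authors scanned 1 Agilent 1-colour array per region and quantified it with Feature Extraction (10.7.3.1, per the file headers). The spot intensity they deposited is linear and background-subtracted, without normalization across arrays. Their value table gives the total intensity per miRNA, equal to that of the scanner files for all 696 miRNAs, with 0.1 where a miRNA was not called detected. The paper's methods name GeneSpring GX for normalization, but no scaling or fold threshold.

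Control and outlier spots (1.67% of miRNA spots for the gland, 2.51% for the flank) were dropped. Spots of a probe were averaged, arrays scaled as described, and probes of a miRNA averaged. Detection of a probe needed over 50% of its spots to be well above background, and detection of a miRNA needed 1 such probe. The SE was propagated from the SD over spots. Steps were tested on simulated data in which the changed miRNAs differed by at least 2-fold. Recovery of ratios as small as those of the members was not tested.

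Sequences are from the RefSeq table. Named miRNAs were the members, their seed relatives, at most 4 miRNAs of a list and the 3 nearest ratios. Others were named after their values were seen where they made up a count of 5 or fewer. miR-27b was also named after its value was seen, as the relative of miR-27a. Members and lists were chosen with earlier results of these data known. The threshold was 1.5-fold. Alternatives changed scaling, signal, background (normexp on median pixel signals, offset 50), spots, detection and probes. Python 3.11.15, numpy 2.4.6, pandas 2.3.3, R 4.3.3 and limma 3.58.1 were used.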

Additional observations from a re-analysis of the deposited data

How the results depend on the processing

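No paired analysis was possible because there is only 1 array for each region, and no replicate could be left out. The log2 ratios of miR-193b (0.12) and miR-365 (0.43) were above 0 under all 12 alternatives, which were not all separate checks. Values that moved by more than the SE over spots follow, with miR-193b first. They were 0.25 and 0.56 with no scaling, 0.28 and 0.59 when the 75th percentile was taken over all probes, 0.24 and 0.55 with the median of the probes detected in both regions, 0.085 and 0.39 from total signals after scaling (scanner files and deposited table alike), and 0.062 and 0.37 where detection required all spots. miR-193b alone moved to 0.23 with quantile normalization, where 44 miRNAs had a higher ratio than miR-365 in place of 18, and to 0.076 with the median of spots. miR-365 alone moved to 0.36 after normexp and to 0.38 with the brightest probe. The 6 miRNAs at least 1.5-fold higher became 15 unscaled, 15 when scaled on the median probe, 19 on the 75th percentile over all probes and 14 after quantile normalization. They became 13, out of 323 miRNAs, when the software decided detection, 2 after normexp and 0 at 2-fold. The 26 lower became 16 at 2-fold. The share of higher calls among all calls moved with the scaling. A higher threshold and the normexp offset lower counts by construction, and elsewhere the cause was not tested. With 1 array per region, signal over background does not limit the members, whose spots were all well above it. Signal over background does limit miR-193. Its log2 ratio was 0.16 after normexp, whose offset draws dim ratios toward 1, and 0.61 with the scaled total signals, above miR-365. Only after normexp was miR-193 nearer to miR-193b than to miR-365. The number of miRNAs with a higher ratio than miR-193, 26, became 63 after normexp, 45 with the median of spots, 12 with quantile normalization and 6 with the scaled total signals.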
